A study of Homo sapiens with 8 samples.

Results

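A set of 1021 open-chromatin peaks was low in dual- and paclitaxel-resistant A2780 ovarian cancer cells and high in cisplatin-resistant and control cells. The peaks are fixed-width intervals that were called and merged by the authors from ATAC-seq libraries, in which the transposase Tn5 inserts adapters into accessible DNA. Members were chosen by their level in CPM, counts of a peak scaled to the total reads in all peaks of a library. The dual- and the paclitaxel-resistant means each had to be at most 0.5 times both the cisplatin-resistant and the control mean, and both of those had to reach 4 CPM. The rule was met by 1021 of 159451 peaks (0.640%), and by 2.71% of the 37631 peaks that reached 4 CPM in both cisplatin-resistant and control cells. The difference between the dual- and paclitaxel-resistant lines and the others is therefore the rule itself, and it is described below with no test.

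The 4 groups were dual-resistant cells (labelled TxCpR, treatment cisplatin and paclitaxel), paclitaxel-resistant cells (TxR, paclitaxel), cisplatin-resistant cells (CpR, cisplatin) and untreated control cells, with 2 libraries each. All carry the genotype label WT and are A2780, an established human ovarian carcinoma line. How the resistant lines were selected, whether each is 1 clone, and whether drug was present at collection are details not given in the sources used here. No label states whether a group's libraries are from separate cultures, so a p-value measures the spread between those libraries alone, which may be technical.

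Paclitaxel binds tubulin and stabilises microtubules, while cisplatin forms adducts on DNA, so the drugs act on different targets. Accessible chromatin marks promoters, at gene starts, and distal elements such as enhancers and insulators, which are often used in only some cell states. Distal elements that serve a gene often lie in clusters, within introns or in the sequence between genes.

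Libraries held 7693492 to 9304798 reads in peaks, so 1 read equalled 0.107 to 0.130 CPM, and the limit that 0 reads allow is 0.322 to 0.390 CPM (3 reads, counting error only). Of 16 ovarian carcinoma markers, 12 had a promoter or gene-end peak and none of these was at 0 in any group. Peaks below 1 CPM were KRT7 and ESR1 in dual-resistant cells, PAX8 in paclitaxel-resistant cells, and CDH1 and ESR1 in cisplatin-resistant cells. No ovarian, haematopoietic or endothelial marker had a member, and 1 fibroblast marker of 11, POSTN, did. The summed fibroblast marker level was 80.9 and 81.1 CPM in dual-resistant, 89.7 and 93.8 CPM in paclitaxel-resistant, 103 and 105 CPM in cisplatin-resistant and 59.3 and 62.9 CPM in control libraries. Over 8 haematopoietic marker peaks the sums were 119 and 118, 146 and 152, 118 and 118, and 110 and 115 CPM in the same order of groups, and 2 endothelial marker peaks summed to 4.70 and 4.08, 2.31 and 2.59, 6.64 and 6.31, and 12.4 and 16.4 CPM, lowest in dual- and paclitaxel-resistant libraries like the members. The part of these markers in the results was not tested.

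The sequences below are the RefSeq promoter windows (GRCh38.p14, 250 bases before to 50 bases after an annotated start, 5′ to 3′ on the gene's strand) of 5 members at promoters. They were chosen because ZNF613 and ZNF841 had the highest folds among the promoters with a window, and because MMP10, TGFBR2 and POSTN are named members that hold an AP-1 match. Each window lies wholly inside its member peak. Capitals mark every match to the 10 motifs searched, on either strand.
ZNF613, chr19:51927222-51927521, plus strand, no match: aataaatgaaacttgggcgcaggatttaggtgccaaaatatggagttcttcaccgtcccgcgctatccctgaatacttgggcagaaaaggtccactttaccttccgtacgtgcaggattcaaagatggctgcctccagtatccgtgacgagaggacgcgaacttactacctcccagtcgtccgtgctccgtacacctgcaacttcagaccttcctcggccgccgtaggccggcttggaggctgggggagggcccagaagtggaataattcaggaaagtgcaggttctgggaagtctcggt
ZNF841, chr19:52095716-52096015, minus strand, with SP/KLF matches and then an ETS match: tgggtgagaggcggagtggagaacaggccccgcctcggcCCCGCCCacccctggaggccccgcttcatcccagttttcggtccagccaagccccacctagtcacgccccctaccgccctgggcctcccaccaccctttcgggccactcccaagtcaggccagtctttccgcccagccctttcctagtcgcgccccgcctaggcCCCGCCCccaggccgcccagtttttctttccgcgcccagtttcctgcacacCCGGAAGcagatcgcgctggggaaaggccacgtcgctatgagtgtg
MMP10, chr11:102780579-102780878, minus strand, with GATA, AP-1, SOX and CTCF matches in that order: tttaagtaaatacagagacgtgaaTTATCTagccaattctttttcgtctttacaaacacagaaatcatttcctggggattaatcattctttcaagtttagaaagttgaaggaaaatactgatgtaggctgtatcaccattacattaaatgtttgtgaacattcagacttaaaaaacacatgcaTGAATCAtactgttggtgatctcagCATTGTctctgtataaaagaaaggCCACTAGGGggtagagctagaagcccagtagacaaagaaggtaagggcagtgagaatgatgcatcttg
TGFBR2, chr3:30606351-30606650, plus strand, with E-box matches and then an AP-1 match: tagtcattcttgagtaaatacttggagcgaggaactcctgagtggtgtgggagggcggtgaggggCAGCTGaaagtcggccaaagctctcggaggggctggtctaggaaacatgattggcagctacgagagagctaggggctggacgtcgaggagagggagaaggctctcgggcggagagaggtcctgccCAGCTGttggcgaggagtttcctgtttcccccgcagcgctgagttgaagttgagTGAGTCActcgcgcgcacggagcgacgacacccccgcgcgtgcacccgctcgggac
POSTN, chr13:37598719-37599018, minus strand, with an AP-1 match: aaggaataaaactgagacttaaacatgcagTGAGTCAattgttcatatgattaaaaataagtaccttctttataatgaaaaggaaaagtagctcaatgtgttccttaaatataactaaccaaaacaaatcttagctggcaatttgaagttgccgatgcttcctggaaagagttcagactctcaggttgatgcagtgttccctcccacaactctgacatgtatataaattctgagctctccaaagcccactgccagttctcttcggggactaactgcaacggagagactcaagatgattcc

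Windows inside members numbered 105, from 87 genes, and were set beside all 12389 windows in peaks with at least 4 CPM in cisplatin-resistant and control cells. Shares below are of windows with a match on either strand, the member windows first. The ETS letters CCGGAAG were in 6.67%, against 19.5%. The SP/KLF letters GGGCGGG were in 36.2%, against 56.2%. Both are GC-rich elements common at promoters. For AP-1, the site of FOS and JUN proteins, the letters TGANTCA were in 5.71%, against 3.69%. That is 6 of the 105 member windows, and the share over all tested windows was 4.77%, so the difference rests on few windows. The related CRE letters TGACGTCA, which hold no AP-1 match, were in 1 member window (0.952%), against 3.20%, and 2.91% of all tested windows. The CTCF letters CCANNAGGG were in 8.57%, against 6.401%. The E-box letters CAGCTG were in 14.3%, against 16.5%, and the TEAD letters GGAATG in 7.62%, against 10.4%. GATA letters, written AGATAA, were in 4.76%, against 4.24%, and SOX letters, written ACAATG, in 3.81%, against 5.17%. The homeobox letters TAATTA were in 3 member windows (2.86%), against 1.58%, and 1.94% of all tested windows. Median GC content was 64% in member windows, against 66%, and the observed over expected ratio of CpG was 0.73, against 0.85. A match is a stretch of letters and not a measured binding site.

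Across the 1021 members, the median level was 1.36 and 1.51 CPM in the dual-resistant libraries, 0.971 and 1.12 CPM in the paclitaxel-resistant, 9.34 and 9.82 CPM in the cisplatin-resistant, and 9.62 and 9.53 CPM in the control libraries. Members were of common strength where they were open, since all peaks with at least 4 CPM in cisplatin-resistant and control cells had medians of 9.68 to 11.2 CPM in those 4 libraries. In dual- and paclitaxel-resistant libraries the same peaks had medians of 10 to 10.96 CPM. The libraries of the dual- and paclitaxel-resistant lines did not overlap those of the others in 1020 of the 1021 members, a separation that the rule nearly fixes.

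**Figure D1:**
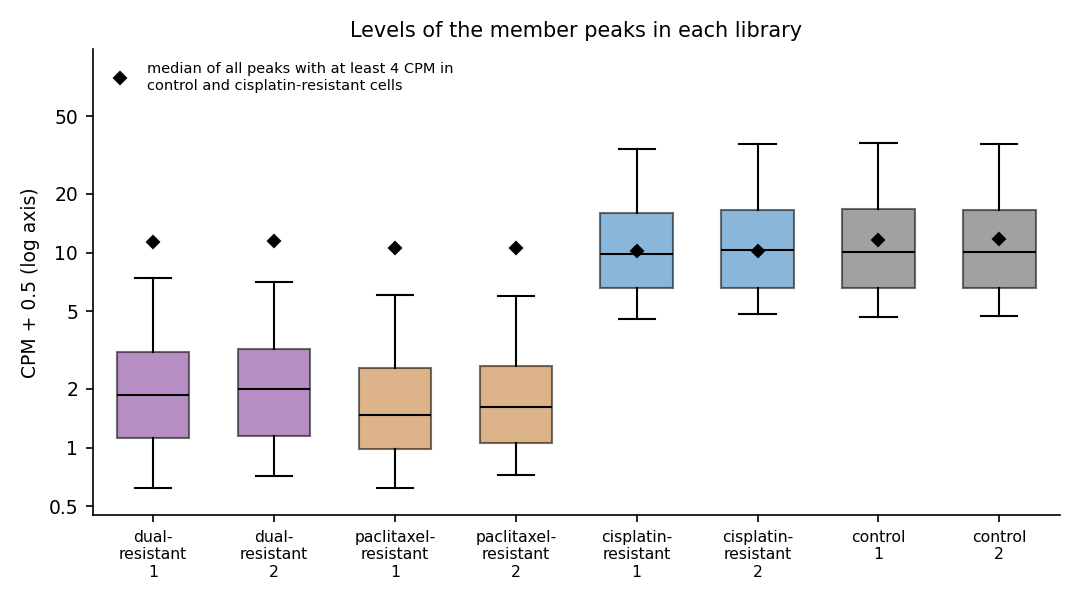
Levels of the 1021 members in each library (CPM + 0.5, log axis), with boxes at the quartiles, a line at the median and whiskers at the 5th and 95th percentiles. Black diamonds are the medians of all peaks with at least 4 CPM in cisplatin-resistant and control cells, which stay near 10 CPM in every library, whereas the member boxes sit near 1 CPM in dual- and paclitaxel-resistant and near 10 CPM in cisplatin-resistant and control libraries.

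How far the members fell short varied widely. The margin fold, the lower of the cisplatin-resistant and control means over the higher of the dual- and paclitaxel-resistant means with 0.5 CPM added to each, had a median of 3.41 and ran between 1.80 and 28.9. It was at least 4 in 442 members and at least 10 in 83. Few were empty, since only 11 members had at most 3 reads in all 4 dual- and paclitaxel-resistant libraries, and none had 0 in all 4. At the other end, 164 members (16.1%) still had 4 CPM or more in dual- or paclitaxel-resistant cells.

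Members near the limits show where the rule falls. Just inside the 4 CPM minimum were a peak in IL1RAPL2 at 4.00045 CPM in cisplatin-resistant cells and a peak in WLS at 4.00091 CPM in control cells. Just outside were a peak in SCN9A at 3.98 CPM and one near AMIGO2 at 3.97 CPM. Just inside the 2-fold limit were a peak in BCAS3 (fold 2.001) and one near SHOX2 (2.003), and just outside were one near FRG2C (1.996) and one in DNM3 (1.99).

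The choice was also read in libraries that did not make it. When the rule was applied to library 1 of each group alone, 1065 peaks met it, and 725 of them (68.1%) met it again in the libraries numbered 2, where 0.687% of all peaks did. The order of the groups, with both higher groups above both lower ones, was kept in 96.1% of them, and their median fold in the unused libraries was 3.08.

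Each merged peak carries the name of a peak called in 1 group, and 955 members (93.5%) were named after a cisplatin-resistant peak, against 34.3% of all peaks. Control peaks named 63 members (6.17%, against 3.18% of all peaks), dual-resistant peaks named 3, and paclitaxel-resistant peaks named 0. The sources used here do not say how 1 name was picked where several groups had a peak.

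Members lay mostly outside genes, which here and below means protein-coding genes only. Outside genes were 55.5% of the members, 36.0% were inside a gene and 8.42% overlapped a promoter window. Windows were available for 15813 of 19974 protein-coding genes, and for 0 of 715 on chromosome 8. Peaks at the ends of genes without a window, such as PI15 and SOX9, are therefore counted as inside or outside genes. Among all peaks with at least 4 CPM in cisplatin-resistant and control cells, 35.4% were outside genes, 39.0% inside and 25.5% at a promoter. Among all tested peaks, many of them weaker, the shares were 42.7%, 49.7% and 7.59%, so the members' promoter share lay near that of all tested peaks. Members over 100 kb from any protein-coding gene made up 23.9%, against 4.91% of the peaks with 4 CPM and 11.1% of all tested peaks. The median distance to a RefSeq start was 60.4 kb for 956 members, against 7.41 kb for the peaks with 4 CPM and 27.7 kb for all tested peaks, with chromosome 8 not analysed here for distance.

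Members were also spread unevenly over the chromosomes. Per 1000 tested peaks there were 12.6 members on chromosome 9, 12.2 on chromosome 21 and 10.6 on chromosome 3, against 6.43 overall. Fewest were on chromosome 7 with 1.145, chromosome 22 with 1.24 and chromosome 19 with 1.83. As a share of the peaks with 4 CPM in cisplatin-resistant and control cells the order differed, with 5.498% on chromosome 13, 5.16% on chromosome 4, 5.1% on chromosome 3 and 4.901% on chromosome 9, against 2.71% over all chromosomes, and the lowest shares on chromosomes 22, 19 and 7. Regions of 5 Mb in which the non-member peaks were lower in the dual- and paclitaxel-resistant lines by more than 0.5 on the log2 scale, the mean log2(CPM + 0.5) of dual- and paclitaxel-resistant minus that of cisplatin-resistant and control cells, held 20.3% of members, against 2.44% of all tested peaks. The median 5 Mb level around a member was -0.09, against 0.01 around all tested peaks and -2.46 at the members themselves. DNA copy number and local accessibility cannot be told apart from these reads alone.

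Peaks near members were also lower on this scale, which averages cisplatin-resistant with control cells. Non-member peaks within 2 kb of a member had a median log2 difference of -1.25 on that scale and 95.5% of the 400 such peaks were lower. Between 10 and 20 kb the median was -0.42, and between 50 and 100 kb it was -0.13. Beyond 1000 kb it was 0.04, against 0.02 for all non-member peaks tested, of which 48.6% were lower. A peak that misses the rule narrowly counts as a neighbour here, so these values describe the surroundings and carry no test.

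**Figure D2:**
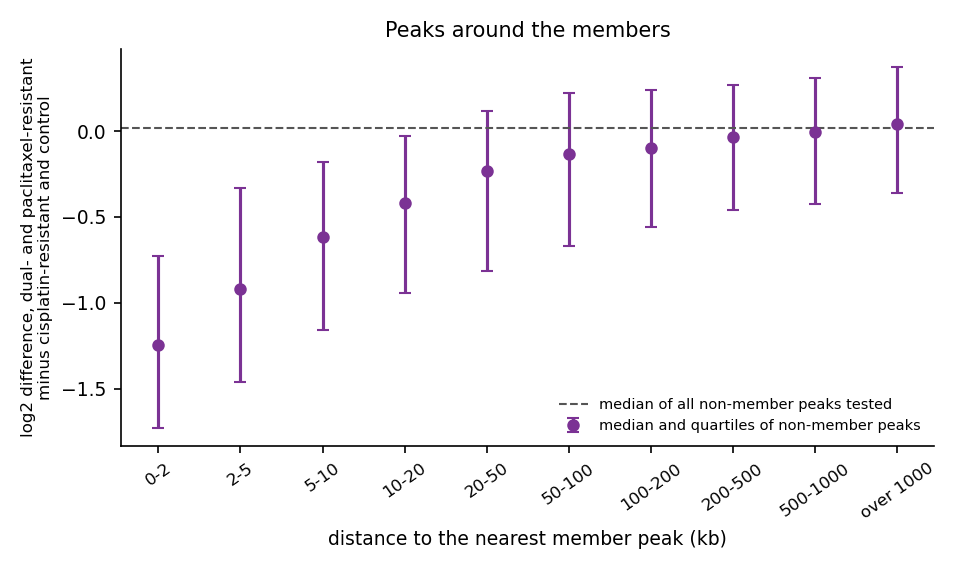
Log2 difference of non-member peaks (mean of dual- and paclitaxel-resistant minus mean of cisplatin-resistant and control, vertical axis) by distance to the nearest member in kb, with points at the median and bars at the quartiles. The median lies at -1.25 within 2 kb, at -0.42 between 10 and 20 kb and close to the dashed line for all non-members beyond 500 kb.

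Members gathered in clusters. Chained where their starts lay within 100 kb of each other, they formed 352 loci, of which 230 held 1 member, 70 held 2 to 4, and 52 held 5 or more. Those 52 loci took 611 members (59.8%). They also held 658 tested peaks that were not members, of which 629 were lower in the dual- and paclitaxel-resistant lines and 431 at least 2-fold lower. Over all tested non-member peaks, 48.6% were lower and 10.3% at least 2-fold lower. Peaks that miss the rule narrowly are among the 658, and other peaks were not chained in this way, so these counts are a description. No protein-coding gene lay within 100 kb of the members of 13 of the 52 loci.

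The largest locus, chr8:74704787-74860271, spans PI15, which encodes a secreted peptidase inhibitor, and held 35 members among 63 tested peaks. Summed over those 35 members, the level was 22.3 and 26.6 CPM in dual-resistant, 16.3 and 18.0 CPM in paclitaxel-resistant, 695 and 748 CPM in cisplatin-resistant, and 413 and 423 CPM in control libraries. All dual- and paclitaxel-resistant libraries were far below the others, and the cisplatin-resistant libraries were above control. The 28 other peaks of the locus had median levels of 0.351 CPM in dual-resistant, 0.353 CPM in paclitaxel-resistant, 7.29 CPM in cisplatin-resistant and 2.23 CPM in control cells. Some of them were open in cisplatin-resistant cells alone, such as one with 0.376, 0.234, 7.13 and 0.194 CPM in that order of groups, where control was no higher than the dual- and paclitaxel-resistant lines. At the peak with the highest margin fold of all members (28.9), chr8:74771140-74772140 and 52894 bp from PI15, the level was 0.742 and 0.860 CPM in dual-resistant, 1.09 and 0.225 CPM in paclitaxel-resistant, 43.6 and 46.1 CPM in cisplatin-resistant, and 37.3 and 36.8 CPM in control libraries. The peak at the end of PI15 itself is given with the promoters.

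LRRTM4, which encodes a postsynaptic adhesion protein, held 26 members among 34 peaks of its locus, chr2:76612735-76829727. The members summed to 26.6 and 28.2 CPM in dual-resistant, 9.47 and 15.6 CPM in paclitaxel-resistant, 484 and 504 CPM in cisplatin-resistant, and 586 and 570 CPM in control libraries. A member inside the gene, chr2:76752317-76753317, was among the 5 strongest in control cells. It had 2.84 and 2.26 CPM in dual-resistant, 0.121 and 1.12 CPM in paclitaxel-resistant, 52.5 and 54.96 CPM in cisplatin-resistant, and 64.5 and 64.2 CPM in control libraries. The dual-resistant libraries were both above the paclitaxel-resistant ones, by 1.60 ± 0.23 on the log2 scale (SE, limma adjusted p = 1.5e-08).

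A locus on chromosome 9, chr9:78574310-78778590, with no protein-coding gene within 100 kb held 29 members among 40 peaks. Its members summed to 21.5 and 19.5 CPM in dual-resistant, 25.9 and 27.1 CPM in paclitaxel-resistant, 302 and 331 CPM in cisplatin-resistant, and 658 and 628 CPM in control libraries. Here the cisplatin-resistant libraries lay between the dual- and paclitaxel-resistant ones and control. PSAT1, an enzyme of serine synthesis, lies at lower coordinates than that stretch, in a locus of 12 members, chr9:78298625-78440041, of which 10 were assigned to the gene. The 12 members summed to 28.1 and 25.8, 24.3 and 25.4, 97.1 and 120, and 176 and 184 CPM in dual-resistant, paclitaxel-resistant, cisplatin-resistant and control libraries.

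The promoter of PSAT1 did not follow the members of that locus. It had 50.8 and 46.1 CPM in dual-resistant, 54.5 and 49.8 CPM in paclitaxel-resistant, 51.2 and 53.2 CPM in cisplatin-resistant, and 57.5 and 57.8 CPM in control libraries, and was not a member. The groups lay close together at this promoter. The promoters of GBE1, the glycogen branching enzyme, and of FERMT2, an activator of integrins also called kindlin-2, were likewise near level, with means of 63.7, 63.0, 67.7 and 70.3 CPM for GBE1 and 24.4, 27.5, 19.9 and 24.4 CPM for FERMT2 in dual-resistant, paclitaxel-resistant, cisplatin-resistant and control cells.

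FERMT2 shares its locus, chr14:52731680-52961592, with STYX, a catalytically inactive phosphatase, and GNPNAT1, an enzyme of the hexosamine pathway. That locus held 27 members among 76 peaks, with sums of 68.9 and 66.1 CPM in dual-resistant, 60.3 and 65.4 CPM in paclitaxel-resistant, 264 and 291 CPM in cisplatin-resistant, and 345 and 354 CPM in control libraries. The promoters of STYX and GNPNAT1 were not members and averaged 45.3, 64.02, 45.4 and 56.5 CPM and 31.1, 33.5, 35.1 and 41.9 CPM in the same order. The locus at GBE1 held 23 members among 42 peaks, of which 2 lay in the gene or within 100 kb of it. The 23 members summed to 30.2 and 31.2, 11.7 and 16.4, 215 and 234, and 308 and 302 CPM in that order.

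Other large loci covered SPRED1, an inhibitor of Ras to ERK signalling, with its neighbour TMCO5A (29 members of 87 peaks), PTPRD, a receptor-type tyrosine phosphatase (23 of 28), JMJD1C, a histone demethylase family protein, with REEP3, which shapes the endoplasmic reticulum (21 of 142), and ANO3, an anoctamin membrane protein (18 of 27). At the strongest member near SPRED1 by margin fold, chr15:38246372-38247372, the level was 0.742 and 0.322 CPM in dual-resistant, 0.607 and 0.899 CPM in paclitaxel-resistant, 41.5 and 47.4 CPM in cisplatin-resistant, and 17.7 and 17.9 CPM in control libraries. Cisplatin-resistant libraries were the highest there, above control by 1.29 ± 0.28 log2 (SE, limma adjusted p = 8.2e-05). In IL1RAPL2, which encodes a receptor of the interleukin-1 receptor family, 13 of 21 locus peaks were members. The member inside the gene at chrX:105699848-105700848 had 0.247 and 0.215 CPM in dual-resistant and 0.243 and 0.225 CPM in paclitaxel-resistant libraries, which is 2 reads in each and below the floor. The same peak had 15.2 and 11.1 CPM in cisplatin-resistant and 19.5 and 16.9 CPM in control libraries.

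A cluster of matrix metalloproteinase genes on chromosome 11, chr11:102760203-102851885, held 16 members among 24 peaks, over MMP10, MMP1 and MMP3, enzymes that cleave extracellular matrix. All 11 peaks assigned to MMP10 were members. The 16 members summed to 30.9 and 27.7 CPM in dual-resistant, 14.8 and 16.6 CPM in paclitaxel-resistant, 251 and 249 CPM in cisplatin-resistant, and 314 and 314 CPM in control libraries. The MMP10 promoter, printed above with its AP-1 match, had 5.32 and 4.19 CPM in dual-resistant, 1.58 and 1.80 CPM in paclitaxel-resistant, 27.7 and 26.8 CPM in cisplatin-resistant, and 36.6 and 36.8 CPM in control libraries. Both dual-resistant libraries lay above both paclitaxel-resistant ones and below the rest.

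**Figure D3:**
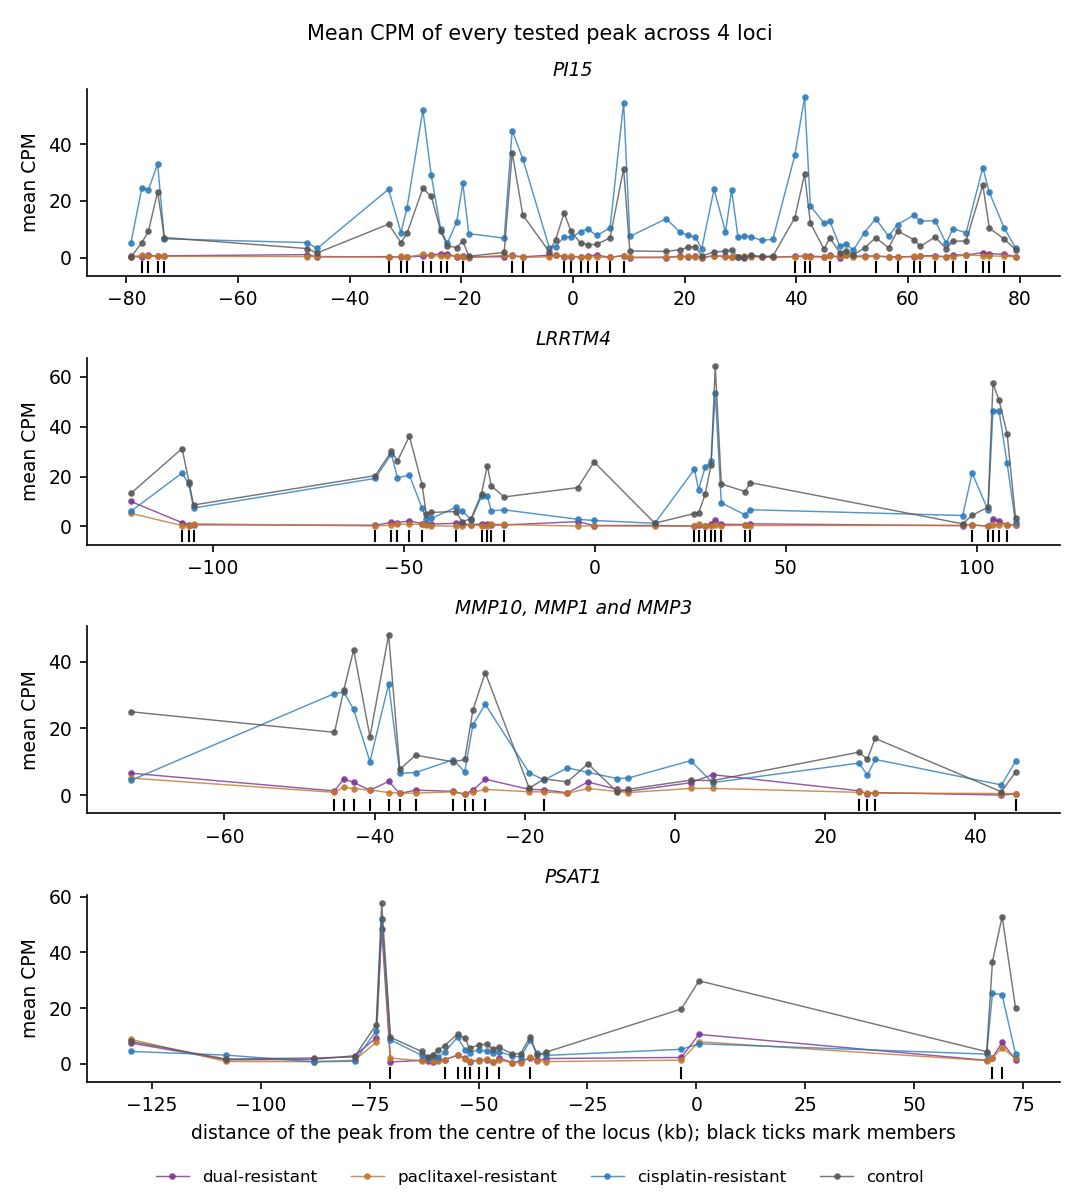
Mean CPM of every tested peak (2 libraries a group) across 4 loci, against the distance of the peak from the centre of the locus in kb, with black ticks under the members. At PI15 the dual- and paclitaxel-resistant lines run along the base, at LRRTM4 they do so except at 1 non-member peak with 10.01, 5.22, 6.06 and 13.3 CPM in dual-resistant, paclitaxel-resistant, cisplatin-resistant and control cells, and in the PSAT1 panel the promoter peak reaches 48.5 to 57.6 CPM in all 4 groups and the members beside it do not.

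Promoters were a minority of the members. Of 14731 protein-coding genes with a promoter or gene-end peak, the strongest such peak was a member for 113 (0.767%). Of these, 79 were found by the RefSeq window and 34 by a peak within 1 kb of either end of a gene without a window. Members at weaker promoter peaks of a gene, as at SLC1A5, were not counted here or in the gene lists below. Any assigned member was found for 317 of 18526 genes (1.71%). Assignment was by position and does not show which gene a peak acts on.

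PI15 had the highest margin fold of these, 27.1. Its gene-end peak, chr8:74823518-74824518, had 0.247 and 0.967 CPM in dual-resistant, 0.364 and 0.674 CPM in paclitaxel-resistant, 55.3 and 57.6 CPM in cisplatin-resistant, and 32.4 and 26.6 CPM in control libraries. The dual- and paclitaxel-resistant lines were at 2 to 9 reads a library, and cisplatin-resistant cells were above control by 0.93 ± 0.27 log2 (SE, limma adjusted p = 0.0035). That call was lost without cisplatin-resistant library 2 (adjusted p = 0.0653) or control library 2 (adjusted p = 0.0930), by limma.

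Next came ZNF613, ZNF841 and ZNF701, which encode zinc finger proteins and lie within 1 Mb on chromosome 19. The ZNF613 promoter had 0.247 and 0.430 CPM in dual-resistant, 0.243 and 0.4495 CPM in paclitaxel-resistant, 14.1 and 18.6 CPM in cisplatin-resistant, and 17.4 and 18.4 CPM in control libraries. ZNF841 averaged 0.293 ± 0.110, 0.355 ± 0.184, 11.7 ± 2.83 and 10.5 ± 0.476 CPM, and ZNF701 averaged 1.09 ± 0.136, 1.29 ± 0.0702, 22.9 ± 2.62 and 22.2 ± 0.487 CPM in dual-resistant, paclitaxel-resistant, cisplatin-resistant and control cells (SD, n = 2 each). No difference between dual- and paclitaxel-resistant cells was called at these 3 promoters, with limma adjusted p of 0.683 to 0.988. The 4 libraries of those lines together held only 12 reads at ZNF613, 11 at ZNF841 and 41 at ZNF701, so a difference could hardly be detected. Zinc finger genes of this kind are near-identical in places, and the handling of reads with several matches is not given in the labels.

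Among the 12 promoters of highest margin fold, CLDN17 and CLDN8, which encode claudins of tight junctions, share a locus on chromosome 21 with 12 members of 14 peaks. CLDN17 had 0.247 and 1.40 CPM in dual-resistant, 0.607 and 0.674 CPM in paclitaxel-resistant, 14.1 and 14.6 CPM in cisplatin-resistant, and 23.01 and 22.3 CPM in control libraries. IFT70A, an intraflagellar transport protein, averaged 0.293, 1.36, 23.65 and 18.9 CPM in dual-resistant, paclitaxel-resistant, cisplatin-resistant and control cells, and was lower in dual- than in paclitaxel-resistant cells by -1.19 ± 0.29 log2 (SE, limma adjusted p = 0.0011). KLF7, a Krüppel-like transcription factor, was lower in dual-resistant cells too (-0.92 ± 0.25 log2, SE, limma adjusted p = 0.0032). Without paclitaxel-resistant library 1 neither call held, with limma adjusted p of 0.0840 for IFT70A and 0.172 for KLF7, and KLF7 also lost its call without dual-resistant library 1 (adjusted p = 0.260).

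The other 5 of the 12 were NAALAD2, a peptidase, RASEF, a Rab GTPase, SLC25A24, a mitochondrial carrier, FREM2, a basement membrane protein, and CLDN8. NAALAD2 averaged 1.52, 1.66, 17.6 and 33.9 CPM in dual-resistant, paclitaxel-resistant, cisplatin-resistant and control cells. It was the only one of the 5 called between cisplatin-resistant and control cells, by -0.92 ± 0.25 log2 (SE, limma adjusted p = 0.0022).

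**Figure D4:**
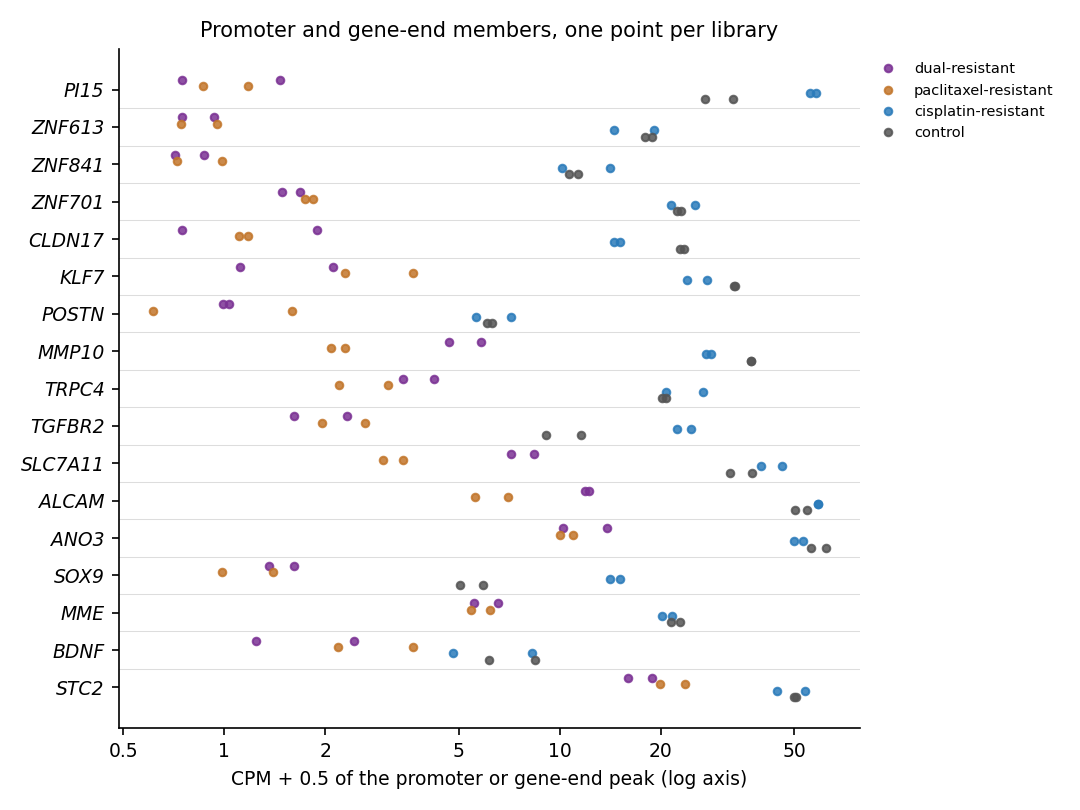
Promoter or gene-end peaks of 17 genes with a member there, one point per library, on a log axis of CPM + 0.5. In every row the 4 points of dual- and paclitaxel-resistant libraries lie to the left of the 4 points of cisplatin-resistant and control libraries, with the widest gap at PI15 and a narrow one at BDNF, whose 8 libraries run between 0.742 and 7.93 CPM. The genes drawn were picked after their values were seen.

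In the TGF-beta and BMP list 2 of 28 genes with a promoter peak had a promoter member (7.14%, against 0.767% of all genes with a promoter peak), TGFBR2, the type II receptor for TGF-beta, and BMP4, a secreted ligand. TGFBR2 had 1.11 and 1.83 CPM in dual-resistant, 1.46 and 2.13 CPM in paclitaxel-resistant, 21.8 and 24.2 CPM in cisplatin-resistant, and 11.1 and 8.62 CPM in control libraries. Cisplatin-resistant libraries were the highest, above control by 1.19 ± 0.28 log2 (SE, limma adjusted p = 2.8e-04). INHBA, a subunit of activin, had a member inside the gene.

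Receptor tyrosine kinases and their ligands had no promoter member among 42, WNT genes none among 38, and ERK feedback and immediate target genes none among 16. Of 20 ERK feedback and immediate target genes with any peak, 4 had a distal member, namely SPRED1, SPRY1, SPRY2 and MYC. SPRY1 and SPRY2 encode inhibitors of receptor tyrosine kinase signalling. A member 15280 bp from SPRY2 had 9.27 and 6.34 CPM in dual-resistant, 16.8 and 12.7 CPM in paclitaxel-resistant, 39.8 and 44.3 CPM in cisplatin-resistant, and 45.5 and 49.7 CPM in control libraries. It was lower in dual- than in paclitaxel-resistant cells by -0.88 ± 0.15 log2 (SE, limma adjusted p = 2.1e-06). The promoter of DUSP6, an ERK phosphatase, was not a member, because dual-resistant cells had 26.1 and 25.6 CPM, against 6.43 and 3.82 CPM in paclitaxel-resistant, 49.1 and 52.7 CPM in cisplatin-resistant and 44.2 and 41.7 CPM in control libraries.

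Extracellular matrix genes had promoter members at 3 of 36, COL8A1, a collagen, POSTN, the matrix protein periostin, and THBS1, thrombospondin 1. The POSTN promoter had 0.495 and 0.537 CPM in dual-resistant, 1.09 and 0.112 CPM in paclitaxel-resistant, 6.64 and 5.14 CPM in cisplatin-resistant, and 5.59 and 5.79 CPM in control libraries. A member 11981 bp from POSTN had 0.495 and 0 CPM in dual-resistant and 0.243 and 0.337 CPM in paclitaxel-resistant libraries, against 13.4 and 15.9 CPM in cisplatin-resistant and 15.5 and 11.2 CPM in control libraries. Among integrins and cadherins, 1 of 31 promoters was a member. That was ITGAV, the alpha V integrin subunit, whose promoter averaged 15.5 ± 2.53, 15.35 ± 1.97, 32.1 ± 6.14 and 42.4 ± 1.94 CPM in dual-resistant, paclitaxel-resistant, cisplatin-resistant and control cells (SD, n = 2 each).

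Redox and cystine genes had 2 promoter members among 28, SLC7A11 and NOX4, and 6 of 31 had any member. SLC7A11 is the exchanger that takes up cystine in return for glutamate. Its gene-end peak, chr4:138241807-138242807, had 7.91 and 6.66 CPM in dual-resistant, 2.91 and 2.47 CPM in paclitaxel-resistant, 39.4 and 45.5 CPM in cisplatin-resistant, and 31.7 and 37.1 CPM in control libraries. Dual-resistant libraries were above paclitaxel-resistant ones, by 1.28 ± 0.18 log2 (SE, limma adjusted p = 9.8e-09), and below the others. NOX4, an NADPH oxidase that makes hydrogen peroxide, had a promoter member with 2.23 and 1.505 CPM in dual-resistant, 2.06 and 0.225 CPM in paclitaxel-resistant, 6.30 and 6.67 CPM in cisplatin-resistant, and 9.10 and 15.3 CPM in control libraries. A second member, 718 bp outside the gene, was lower in cisplatin-resistant than in control cells by -1.57 ± 0.34 log2 (SE, limma adjusted p = 9.6e-05). The promoters or gene ends of HMOX1, GPX4 and FTH1, which act in haem breakdown, lipid peroxide removal and iron storage, were not members. Each of these genes had a member outside the gene. FTH1 also had a member inside the gene, with means of 2.16, 2.315, 5.20 and 4.66 CPM in dual-resistant, paclitaxel-resistant, cisplatin-resistant and control cells.

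Neuronal and synaptic genes had promoter members at 5 of 37, BDNF, GRIK1, GRIN2B, SYT1 and SLIT2. BDNF is a neurotrophin, GRIK1 and GRIN2B are glutamate receptor subunits, SYT1 is the calcium sensor of synaptic vesicles, and SLIT2 guides axons. At a member inside BDNF the level was 3.59 and 1.93 CPM in dual-resistant, 3.40 and 4.61 CPM in paclitaxel-resistant, 32.1 and 27.8 CPM in cisplatin-resistant, and 36.1 and 39.8 CPM in control libraries. In the list of homeobox and developmental transcription factors 1 of 70 promoters was a member, that of SOX9. Any member was found for 7 of its 88 genes, including LHX8. The list is not complete, since EN1 and SOX7 had gene-end members and TBX22 a promoter member outside it. SOX9 had 1.11 and 0.860 CPM in dual-resistant, 0.486 and 0.899 CPM in paclitaxel-resistant, 14.6 and 13.7 CPM in cisplatin-resistant, and 4.55 and 5.41 CPM in control libraries. Cisplatin-resistant libraries were above control there by 1.42 ± 0.35 log2 (SE, limma adjusted p = 6.3e-04).

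Interferon-stimulated genes had 2 promoter members of 36, RSAD2 and GBP1, and NF-kB and inflammatory genes 1 of 17, the chemokine CXCL2. In the drug transport and metabolism list 1 of 23 was a member, AHR, the aryl hydrocarbon receptor, with means of 1.05, 1.19, 8.85 and 4.91 CPM in dual-resistant, paclitaxel-resistant, cisplatin-resistant and control cells. CYP1B1, a cytochrome P450 that AHR induces, had a gene-end peak that was not a member, with 31.4 and 32.7 CPM in dual-resistant, 15.2 and 13.0 CPM in paclitaxel-resistant, 42.4 and 47.4 CPM in cisplatin-resistant, and 43.3 and 43.2 CPM in control libraries. Tubulins and microtubule regulators had no member at any of 34 genes with a peak, and apoptosis genes 1 of 32, a distal member near MCL1. None of 18 housekeeping genes had one. The rate over all genes, 0.767% for promoters and 1.71% for any member, stands beside these counts, which rest on few genes a list.

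Several further promoters were picked out after their values were seen. ALCAM, a cell adhesion molecule, kept a sizeable peak in the dual- and paclitaxel-resistant lines, with 11.8 and 11.4 CPM in dual-resistant and 5.10 and 6.52 CPM in paclitaxel-resistant, against 58.5 and 58.4 CPM in cisplatin-resistant and 49.9 and 54.1 CPM in control libraries. STC2, the secreted protein stanniocalcin 2, averaged 16.9, 21.3, 48.6 and 49.9 CPM, and NUPR1, a stress-responsive nuclear protein, averaged 5.09, 1.70, 12.5 and 18.8 CPM in dual-resistant, paclitaxel-resistant, cisplatin-resistant and control cells.

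Within each pair of groups on the same side of the rule, the members could be tested, since the rule sets no ratio there. It still bounds both groups of each pair, with a 4 CPM minimum on the higher side and a ceiling on the lower side. The shares of members called, set beside all tested peaks, therefore depend in part on how the members were chosen. The test was limma on log2(CPM + 0.5) over the 158698 peaks that reached 1 CPM in 2 or more libraries, with Benjamini-Hochberg adjusted p under 0.05 as the threshold. Between dual- and paclitaxel-resistant cells 184 of the 1021 members were higher (18% of members, against 14.9% of all tested peaks) and 72 were lower (7.05%, against 7.44%). Between cisplatin-resistant and control cells 132 were higher (12.9%, against 18.3%) and 145 were lower (14.2%, against 14.9%). In either direction, 256 members were called in the first comparison (25.1%, against 22.4% of all tested peaks) and 277 in the second (27.1%, against 33.2%), which are shares near or below the background. The median log2 difference was 0.19 for members and 0.23 for all peaks between dual- and paclitaxel-resistant cells, and -0.03 and -0.09 between cisplatin-resistant and control cells.

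The balance between higher and lower calls depended on scaling for dual- against paclitaxel-resistant cells. Under quantile scaling 111 members were higher and 116 lower, and edgeR's quasi-likelihood test on reads recovered from the CPM steps called 116 and 94, so the share of higher calls was 71.9% as deposited and 48.9% and 55.2% under these. Over all tested peaks that share moved too, and was 66.7% as deposited, 50.4% under quantile scaling and 39.7% by edgeR. Median-ratio factors relative to depth were 1.10 and 1.09 in dual-resistant, 0.916 and 0.926 in paclitaxel-resistant, 0.954 and 0.963 in cisplatin-resistant and 1.03 and 1.04 in control libraries, and gave 137 members higher and 105 lower (56.6% higher, against 42.1% over all tested peaks). For cisplatin-resistant against control cells, median-ratio scaling gave 155 higher and 108 lower. Leaving out a cisplatin-resistant or control library cut the calls of that comparison to 83 higher and 82 lower without cisplatin-resistant library 1, 74 and 96 without library 2, 87 and 78 without control library 1, and 85 and 79 without control library 2. Members held a median of 8 to 14 reads in each dual- or paclitaxel-resistant library, against 74 to 84 in each cisplatin-resistant or control library, so small differences between these lines may not be detectable at this depth.

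**Figure D5:**
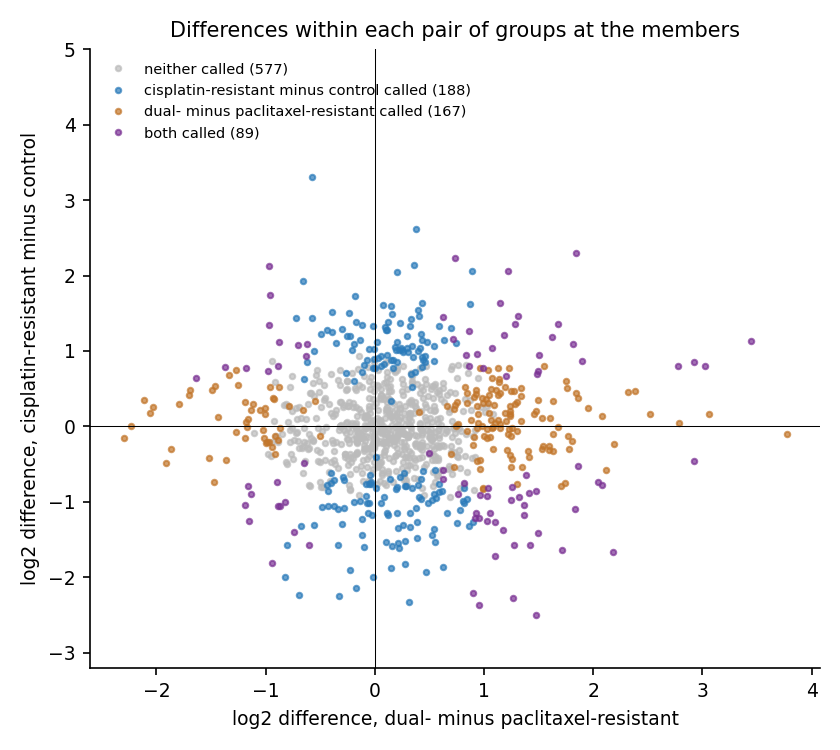
Each point is 1 of the 1021 members, with the log2 difference of dual- minus paclitaxel-resistant cells on the horizontal axis and of cisplatin-resistant minus control cells on the vertical axis, coloured by which was called. In all 577 members were called in neither comparison and 89 in both, and the points spread about 0 on both axes.

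The difference between those differences, dual- minus paclitaxel-resistant less cisplatin-resistant minus control, was called by limma at 290 members (28.4%, against 34.3% of all tested peaks). It was higher at 194 (19%, against 19.3%) and lower at 96 (9.4%, against 15%). These shares too depend in part on how the members were chosen.

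The largest differences for dual- over paclitaxel-resistant cells lay at members in or near BCAS3, XCR1, ZSWIM2 and EMP1. A peak inside BCAS3 had 17.8 and 17.7 CPM in dual-resistant, 0.364 and 1.57 CPM in paclitaxel-resistant, 35.3 and 35.8 CPM in cisplatin-resistant, and 39.2 and 36.9 CPM in control libraries. Dual-resistant cells lay between the other groups, above paclitaxel-resistant cells by 3.77 ± 0.20 log2 (SE, limma adjusted p = 3.1e-31). A member 26762 bp from XCR1, a chemokine receptor gene, had 7.54 and 8.38 CPM in dual-resistant and 0.486 and 0.112 CPM in paclitaxel-resistant, against 65.7 and 66.1 CPM in cisplatin-resistant and 27.7 and 31.9 CPM in control libraries. Near EMP1, an epithelial membrane protein gene, dual-resistant libraries had 18.9 and 12.04 CPM and paclitaxel-resistant ones 1.34 and 1.80 CPM, a difference of 2.92 ± 0.18 log2 (SE, limma adjusted p = 5.2e-27).

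Of the 5 members furthest below in dual- against paclitaxel-resistant cells, 4 had no protein-coding gene within 100 kb. The largest such difference, -2.30 ± 0.24 log2 (SE, limma adjusted p = 1.0e-13), was at chr6:23533620-23534620, with 0.247 and 0.645 CPM in dual-resistant, 4.86 and 3.37 CPM in paclitaxel-resistant, 28.1 and 26.7 CPM in cisplatin-resistant, and 32.2 and 29.0 CPM in control libraries. It belongs to a locus of 16 members among 23 peaks with no protein-coding gene within 100 kb. Inside DMD, the dystrophin gene, a member had 0.495 and 0.107 CPM in dual-resistant and 3.28 and 3.03 CPM in paclitaxel-resistant libraries, against 9.79 and 6.43 CPM in cisplatin-resistant and 7.28 and 8.62 CPM in control libraries.

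Between cisplatin-resistant and control cells the largest rise was at a member inside RBMS3, which encodes an RNA-binding protein. It had 0.618 and 0.860 CPM in dual-resistant, 1.21 and 1.46 CPM in paclitaxel-resistant, 43.9 and 47.5 CPM in cisplatin-resistant, and 4.68 and 3.73 CPM in control libraries. Only the cisplatin-resistant libraries were high, above control by 3.30 ± 0.30 log2 (SE, limma adjusted p = 8.9e-17). VMP1, an autophagy protein gene, had a member beside it with 1.85 and 3.01 CPM in dual-resistant, 2.31 and 1.24 CPM in paclitaxel-resistant, 35.6 and 36.2 CPM in cisplatin-resistant, and 5.98 and 4.89 CPM in control libraries. The largest fall was inside DLGAP1, a postsynaptic scaffold gene, with 8.78 and 4.56 CPM in cisplatin-resistant and 43.3 and 33.7 CPM in control libraries (-2.50 ± 0.33 log2, SE, limma adjusted p = 1.1e-09). Its dual-resistant libraries had 0.742 and 1.83 CPM and its paclitaxel-resistant libraries 0.243 and 0 CPM.

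The 5 members with the highest control level included 2 in ANO3 and 1 in LRRTM4, given above. The others were 1 on chromosome 1 with no protein-coding gene within 100 kb, and 1 near CXXC4, which encodes an inhibitor of WNT signalling. The chromosome 1 member, chr1:218048687-218049687, had 0.866 and 1.29 CPM in dual-resistant, 0.8499 and 1.46 CPM in paclitaxel-resistant, 29.1 and 30.05 CPM in cisplatin-resistant, and 63.95 and 69.1 CPM in control libraries. The CXXC4 member, 73906 bp from the gene, stayed well open in the dual- and paclitaxel-resistant lines, with 18.4 and 19.7 CPM in dual-resistant, 23.2 and 19.8 CPM in paclitaxel-resistant, 48.7 and 56.4 CPM in cisplatin-resistant, and 59.3 and 61.6 CPM in control libraries. The ANO3 promoter kept a smaller peak, with 9.77 and 13.3, 10.4 and 9.55, 49.5 and 52.7, and 55.8 and 61.9 CPM in that order of groups.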

How the data were processed

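Accessible chromatin was measured in 8 ATAC-seq libraries, 2 a group. The authors deposited CPM per merged peak, scaled to each library's reads in peaks, so a change shared by all peaks cannot be seen. Bowtie2, Picard, MACS2 and hg38 are named per the submitters' processing notes, without versions. The labels do not describe Tn5 shifting, multi-mapped reads or peak merging. CPM steps gave whole reads (within 0.01) for 100% of values.

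Members, gene lists and tests were chosen with earlier results of these data known. Group means of deposited CPM chose the members. The 158698 peaks that reached 1 CPM in 2 or more libraries were fitted with limma 3.58.1 (R 4.3.3) on log2(CPM + 0.5), a scale that understates changes of low peaks, with all 4 groups, a variance trend and Benjamini-Hochberg adjustment. The fit was tested on simulated data. Alternatives included edgeR 4.0.16 and DESeq2 1.42.0 on the recovered reads.

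Named peaks followed rules: the 12 promoters of highest margin fold, the largest loci, the genes with most members, up to 3 genes a list, 7 genes always given, the 5 largest called differences in each direction and the 5 highest control levels. Others are marked as picked after their values were seen. Genes, protein-coding only, and promoters came from RefSeq (GRCh38.p14). No genome sequence was used, so distal peaks are given by position.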

Additional observations from a re-analysis of the deposited data

Results flagged for a closer look

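At 290 members (28.4%, against 34.3% of all tested peaks) the difference between dual- and paclitaxel-resistant cells differed from that between cisplatin-resistant and control cells, by limma's interaction term at adjusted p under 0.05. It was higher at 194 members (19%, against 19.3% of tested peaks) and lower at 96 (9.4%, against 15%). The interaction was added after the data were seen. The rule bounds all 4 groups, so these shares depend in part on how the members were chosen. DLGAP1 had the largest positive value, 3.98 ± 0.47 log2 (SE, limma adjusted p = 2.5e-11), where dual-resistant cells were above paclitaxel-resistant cells and cisplatin-resistant cells were below control. The paclitaxel-resistant libraries had 0.243 and 0 CPM there, below the floor, so the size of this value is uncertain. At BCAS3 it was 3.87 ± 0.28 (limma adjusted p = 5.6e-22). A member in PRKCH, a protein kinase C gene, averaged 4.03, 0.515, 17.3 and 55.8 CPM in dual-resistant, paclitaxel-resistant, cisplatin-resistant and control cells, with 3.85 ± 0.34 (limma adjusted p = 2.1e-17). RBMS3 had the largest negative value, -3.87 ± 0.42 (limma adjusted p = 7.9e-13). Most of it was the rise of cisplatin-resistant cells over control, 3.30 log2. Dual- and paclitaxel-resistant cells were not called different there (-0.57 ± 0.30 log2, SE, limma adjusted p = 0.166).

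Scaling moved this split, for members and for all tested peaks. The share of higher calls was 66.9% of members' calls (56.4% over all tested peaks) as deposited, 47.9% (36.3%) under median-ratio factors, 47.5% (51.2%) under quantile scaling and 49.2% (39.5%) by edgeR.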

How the results depend on the processing

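The member count was 656 with a minimum of 6 CPM, 656 with a fold of 3 and 1677 with a fold of 1.5, and 1014 to 1061 when 1 library was left out. Cisplatin-resistant against control calls numbered 209 higher and 219 lower when only those 2 groups were fitted, 207 higher by edgeR, and 74 to 145 higher and 78 to 162 lower with 1 library left out. Dual- against paclitaxel-resistant calls numbered 109 higher and 35 lower when only those groups were fitted, 111 and 116 under quantile scaling, 115 and 124 after subtracting 5 Mb regional medians, 116 higher by edgeR and 89 by DESeq2, and 141 to 167 higher and 57 to 65 lower with 1 library left out. There the lone library left in a group is assumed to vary like the other groups. The cause was not tested. With a replicate block the counts were 132 and 146, and 186 and 73; replicate numbers did not pair the libraries, whose deviations correlated by at most 0.003. The 20 largest named differences kept direction and call under 12 settings (scaling, pseudocount, libraries left out). Of 37 other called differences of named members, 17 lost the call under at least 1 setting and 0 turned direction. Low read counts in the dual- and paclitaxel-resistant lines limit their comparison.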
